A study of Mus musculus with 8 samples.

Results

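The genes described here encode the enzymes that make and remodel cardiolipin and the proteins that carry its precursors across the mitochondrial membranes. There are 10 of them, chosen by name from the 55471 gene rows of the count files. They are the edited gene Taz, the synthesis genes Tamm41, Pgs1, Ptpmt1 and Crls1, the remodelling genes Lclat1 and Pnpla8, and the lipid transfer genes Prelid1, Triap1 and Plscr3. Their transcripts were measured by RNA sequencing of hearts from 4 wild-type (WT) and 4 TAZG197V mice, with total counts of 23055689 to 36301031 per library. TAZG197V mice were hemizygous males in which CRISPR/Cas9 editing replaced a glycine of Tafazzin by valine, as in a patient with Barth syndrome. The edit was made in C57BL/6N zygotes and carriers were bred with C57BL6/J for 2 generations, so the edited chromosome started from the C57BL/6N strain. WT mice carried the unedited gene, no mouse was treated, and hearts were taken at 14 weeks of age. The edit is present in every cell of the animal, and RNA was taken from a small piece of heart, in which cell types are mixed. Each library was labelled as a separate sample of its genotype, and the labels do not state whether littermates were used.

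Cardiolipin is the signature phospholipid of the inner mitochondrial membrane, where it holds respiratory chain complexes and carriers in place. It is built from phosphatidic acid through CDP-diacylglycerol, phosphatidylglycerol phosphate and phosphatidylglycerol, after which its acyl chains are exchanged. Tafazzin, a transacylase, carries out most of this exchange in heart, and its loss causes Barth syndrome, with cardiomyopathy and an excess of the intermediate monolysocardiolipin.

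In TAZG197V hearts, Taz transcripts were lower than in WT, while transcripts of 5 of the other 9 genes were higher. Over all 15084 genes tested, 18.5% were called higher and 15.1% lower by the same rule. The higher genes were Tamm41, Ptpmt1 and Crls1 in the synthesis route, the phospholipase gene Pnpla8 and the carrier gene Prelid1. Ptpmt1 and Prelid1 values are uncertain, since 52.3% and 50.0% of their exon bases lie in other genes. Crls1 overlapped between genotypes and was called in 11 of 18 alternative fits. Without both libraries numbered 4 none of the 5 was called higher, while calls of higher genes over all genes fell from 2785 to 1433. Fitted changes were modest, from -0.37 for Taz to 0.58 for Prelid1 on the log2 scale. The difference in Pgs1, Lclat1, Triap1 and Plscr3 did not pass the test.

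The edited site lies in exon 7 of Taz, and this exon is shown because the edit that defines the TAZG197V group was made in it. Of the coding models annotated for mouse Taz in GENCODE M21, 4 are long enough to hold a codon of the number in the label, and none of these 4 has a glycine there. In the model Taz-201, with 262 codons in 10 exons, exon 7 has 63 bases at chrX:74288451-74288513 on the plus strand of GRCm38, the assembly that mm10 names. Only 1 glycine codon lies wholly within this exon, codon 167, with its second base at position 74288457. Its number is 30 below that in the label, and its second base is 90 coding bases below the position named for the edit, which is the same shift. It was taken here as the edited codon, but the files do not show the edit itself. It is shown in capitals in the transcript's exon sequence, 5′ to 3′.

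Taz exon 7: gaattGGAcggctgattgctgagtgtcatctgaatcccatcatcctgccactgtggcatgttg

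With T in place of the second base this codon becomes GTA, which encodes valine. A count per gene does not show which base a read carried. Of the 1802 windows of 50 bases, the read length, along Taz-201, 50 span this base, which is 2.77% of them.

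Taz (ENSMUSG00000009995, chromosome X, 74281912 to 74290151, plus strand) was expressed in all 8 libraries. In counts relative to library size, scaled by the trimmed mean of M values (TMM-scaled CPM, written CPM below), Taz was at 63.8, 58.7, 61.9 and 59.3 in WT 1 to WT 4. It was at 48.0, 50.4, 46.3 and 44.3 in TAZG197V 1 to TAZG197V 4. All 4 TAZG197V values lay below all 4 WT values. The WT mean was 60.9 ± 2.36 CPM and the TAZG197V mean 47.3 ± 2.60 CPM (mean ± SD over 4 mice, as for all means below), which is 22.4% lower. The fitted log2 fold change was -0.37 (SE 0.055, 95% interval -0.50 to -0.25, adjusted p = 0.00124, edgeR quasi-likelihood test). A gene was called higher or lower when its adjusted p was under 0.05, its fitted fold change was beyond a 15% rise or the matching fall, and its mean scaled count was at least 50. Taz was called lower by this rule. Libraries 1 and 2 of each genotype ran in sequencing lane 7 and libraries 3 and 4 in lane 8, and the log2 difference was -0.31 within lane 7 and -0.42 within lane 8.

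**Figure D1:**
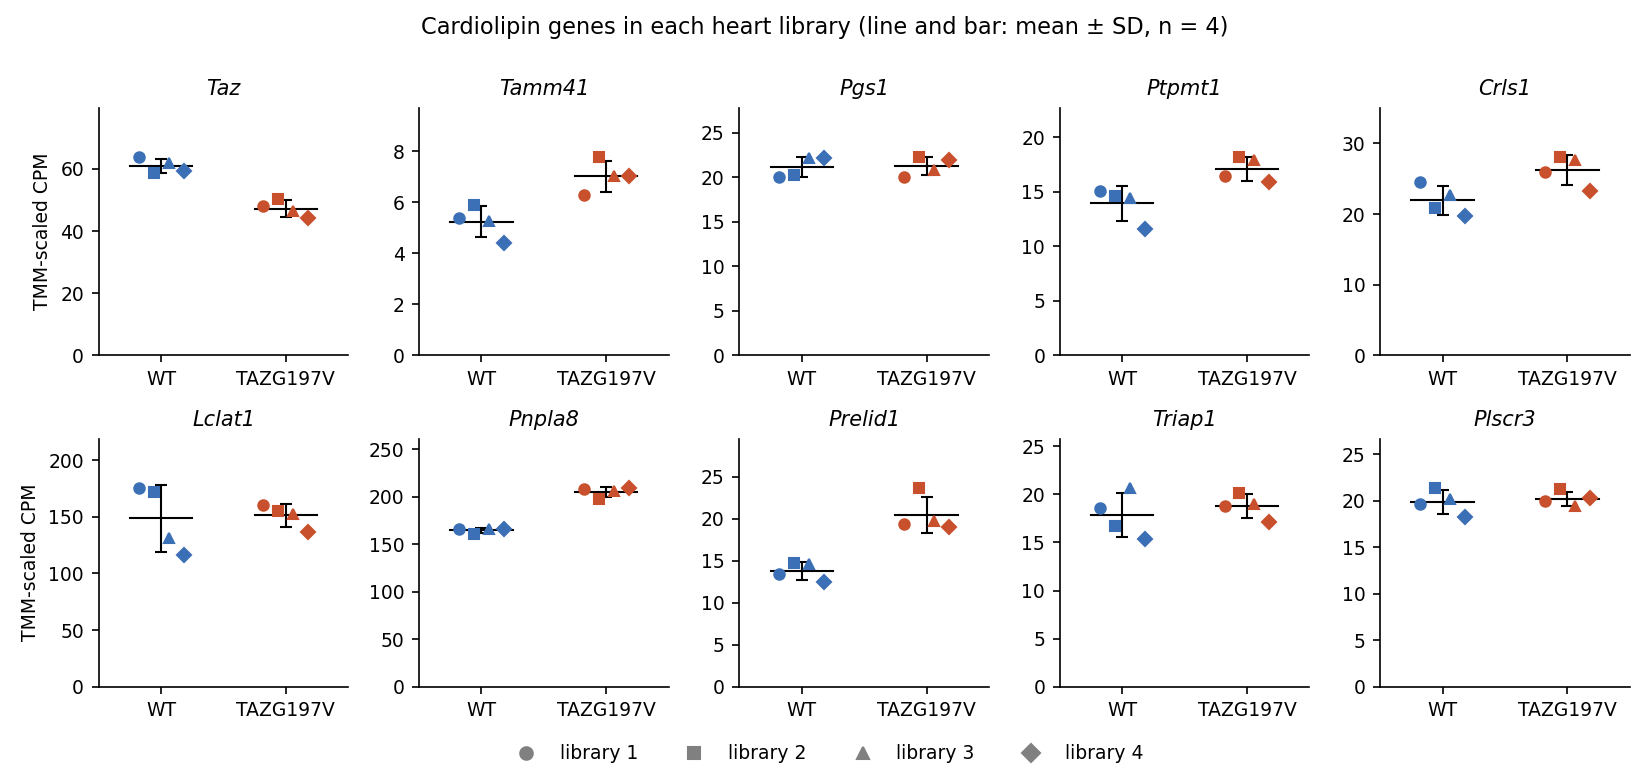
Expression of the 10 cardiolipin genes in each heart library, on linear axes of TMM-scaled CPM that start at 0. Marker shapes give the library number, horizontal lines the means and bars the SD (n = 4 each). Taz lies lower in all TAZG197V libraries, and Tamm41, Ptpmt1, Pnpla8 and Prelid1 lie higher in all of them.

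Cell type markers moved with genotype and are given here because bulk tissue cannot tell fewer cells of a type from less RNA per cell. Summed levels of 8 cardiomyocyte markers ranged from 59500 to 68300 CPM in WT and from 50700 to 54800 CPM in TAZG197V. All 8 had a negative fitted change, and 4 were called lower. These were Pln, which encodes the calcium pump regulator phospholamban (log2 fold change -0.66), the calcium release channel gene Ryr2 (-0.45) and the troponin genes Tnnt2 (-0.33) and Tnni3 (-0.32). The cardiac actin gene Actc1 was at -0.05 (SE 0.086, adjusted p = 0.651, edgeR). Per 1000 CPM of the summed markers, Taz was at 0.968 ± 0.0258 CPM in WT hearts and at 0.897 ± 0.0662 CPM in those of TAZG197V mice, and the ranges overlapped, with TAZG197V 2 at 0.995. Set against each marker alone, Taz overlapped between genotypes for 6 of the 8, was lower relative to Actc1 and was higher relative to Pln. How far these cardiomyocyte markers take part in the Taz difference was not tested.

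Other marker lists set some libraries apart. Red cell markers summed to 55100 CPM in WT 4 against 227 to 1065 CPM in the other 7 libraries, and all 6 were called lower in TAZG197V. Brain markers summed to 96.8 CPM in WT 4 and 241 CPM in TAZG197V 4 against 8.62 to 11.8 CPM elsewhere. Of 5 brain markers 3 were tested, and 1 was called higher. Atrial markers were at 78.2 CPM in WT 1 and 919 CPM in WT 2 and at most 5.90 CPM elsewhere. Of 5 atrial markers 3 were tested, and 2 were called lower. Adipocyte markers ranged from 0.544 to 40.1 CPM in WT and from 0.355 to 6.01 CPM in TAZG197V. Of 5 adipocyte markers only 2 were tested, and both were called lower. Fibroblast markers ranged from 1090 to 1720 CPM in WT and from 751 to 1080 CPM in TAZG197V (3 of 5 called lower), and endothelial markers from 698 to 972 CPM and from 575 to 710 CPM (2 of 5 called lower). Smooth muscle markers ranged from 121 to 249 CPM and from 217 to 411 CPM (1 called higher and 2 lower of 3), macrophage markers from 224 to 312 CPM and from 211 to 334 CPM with no call, and skeletal muscle markers were at most 1.70 CPM. No marker was at 0 in all libraries.

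Some libraries held most of the extreme values of the cardiolipin genes. WT 4 held the lowest WT value for 7 of the 10 genes, as it did for 31.5% of all genes tested. TAZG197V 4 held the lowest TAZG197V value for 6 of the 10, as it did for 36.9% of all genes tested. TAZG197V 2 held the highest TAZG197V value for 8 of the 10, against 27.5% of all genes tested. Where leaving out a single library changed a call among the 10, it is said with the gene. Without both number 4 libraries only Taz was still called, while calls over all genes fell from 5060 to 2649. In that edgeR fit Pnpla8 was at 0.30 (adjusted p = 0.0518) and Prelid1 at 0.51 (adjusted p = 0.0546). Crls1 was at 0.26 (adjusted p = 0.14) and Ptpmt1 at 0.28 (adjusted p = 0.164) in the same fit.

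The synthesis route starts with Tamm41, which makes CDP-diacylglycerol inside mitochondria. Tamm41 (ENSMUSG00000030316, chromosome 6, 115004381 to 115037876, minus strand) was at 5.38, 5.88, 5.28 and 4.42 CPM in WT 1 to WT 4 and at 6.28, 7.77, 7.04 and 7.04 CPM in TAZG197V 1 to TAZG197V 4. Every TAZG197V value was above every WT value, with TAZG197V 1 the closest to the WT range. The means were 5.24 ± 0.607 and 7.03 ± 0.607 CPM, and Tamm41 rose by 0.46 on the log2 scale (SE 0.112, adjusted p = 0.0125, edgeR). It was the gene with the fewest counts of the 10, from 99 to 288 per library. Without both number 4 libraries the change was 0.42 with adjusted p = 0.177, and 0.35 with adjusted p = 0.0559 when the surrogate variables were left out too. Over the 18 alternative fits its adjusted p ranged from 0.0121 to 0.177, and it was called in 16.

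Pgs1 makes phosphatidylglycerol phosphate, the step that commits the precursor to this route. Pgs1 (ENSMUSG00000017715, chromosome 11, 117986292 to 118024011, plus strand) was at 20.03, 20.3, 22.2 and 22.1 CPM in the WT libraries and at 20.1, 22.3, 20.8 and 21.9 CPM in the TAZG197V libraries. The ranges lay on top of each other. The fitted log2 fold change was 0.00 to 2 decimals, with a 95% interval of -0.16 to 0.15 (adjusted p = 0.963, edgeR).

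Ptpmt1 is the phosphatase that turns phosphatidylglycerol phosphate into phosphatidylglycerol. Ptpmt1 (ENSMUSG00000063235, chromosome 2, 90908716 to 90918258, minus strand) was at 15.1, 14.6, 14.4 and 11.6 CPM in WT 1 to WT 4 and at 16.4, 18.2, 17.9 and 16.0 CPM in TAZG197V 1 to TAZG197V 4. The TAZG197V values lay above the WT values, and WT 4 was well below the other WT libraries. The means were 14.0 ± 1.59 and 17.1 ± 1.11 CPM, with a log2 fold change of 0.32 (SE 0.0768, adjusted p = 0.0124, edgeR). Without WT 4 the change was 0.22 with adjusted p = 0.0532, and the adjusted p ranged from 0.0103 to 0.164 over the alternative fits, of which 16 of 18 called it. The Ptpmt1 values are uncertain because 52.3% of its annotated exon bases also lie in other genes, mainly in the antisense gene Kbtbd4, and the strand setting of the counting was not stated. Kbtbd4 itself was called lower, at -0.37 (7.16 ± 0.338 to 5.57 ± 0.201 CPM, adjusted p = 0.0169, edgeR).

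Crls1, cardiolipin synthase, joins phosphatidylglycerol to CDP-diacylglycerol. Crls1 (ENSMUSG00000027357, chromosome 2, 132846666 to 132866785, plus strand) was at 24.5, 20.8, 22.7 and 19.7 CPM in WT 1 to WT 4 and at 25.9, 28.04, 27.6 and 23.2 CPM in TAZG197V 1 to TAZG197V 4. The genotypes overlapped, because TAZG197V 4 lay below WT 1. The means were 21.9 ± 2.09 and 26.2 ± 2.17 CPM, and the change was 0.25 (SE 0.068, adjusted p = 0.0207, edgeR). Within lane 7 and within lane 8 the log2 difference was 0.26. This was the least stable call of the 6, made in 11 of the 18 alternative fits, with adjusted p from 0.0142 to 0.140. It was lost without WT 4 (0.20, adjusted p = 0.051), without TAZG197V 2 (0.23, adjusted p = 0.0793) and without TAZG197V 3 (0.24, adjusted p = 0.0509), all by edgeR, and in DESeq2 (0.24, adjusted p = 0.063). It was also lost with lane as covariate (0.26, adjusted p = 0.0561, edgeR) and with no surrogate variable (0.26, adjusted p = 0.0527, edgeR).

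Lclat1, an acyltransferase that can reacylate lysocardiolipin, was the most variable of the 10 among WT libraries. Lclat1 (ENSMUSG00000054469, chromosome 17, 73107985 to 73243368, plus strand) was at 175, 172, 131 and 117 CPM in WT 1 to WT 4 and at 161, 155, 152 and 137 CPM in TAZG197V 1 to TAZG197V 4. The WT libraries split into 2 higher values from lane 7 and 2 lower values from lane 8, and the TAZG197V values fell between them. The log2 difference was -0.14 within lane 7 and 0.22 within lane 8, and the fitted change was 0.09 (95% interval -0.11 to 0.28, adjusted p = 0.453, edgeR). It passed the test without WT 1 (0.21, adjusted p = 0.0463) and changed sign without WT 4 (-0.05, adjusted p = 0.693), in edgeR fits whose adjusted p ranged from 0.0463 to 1 over all alternatives.

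Pnpla8, a calcium-independent phospholipase that removes acyl chains from cardiolipin, showed the tightest replicates. Pnpla8 (ENSMUSG00000036257, chromosome 12, 44221370 to 44322532, plus strand) was at 166, 160, 166 and 166 CPM in WT 1 to WT 4 and at 207.5, 197.2, 205.7 and 208.6 CPM in TAZG197V 1 to TAZG197V 4. The gap between genotypes was wider than the range within either. The means were 164 ± 2.83 and 205 ± 5.17 CPM, and Pnpla8 rose by 0.31 (SE 0.0508, adjusted p = 0.00203, edgeR). The log2 difference was 0.31 in lane 7 and 0.32 in lane 8. It was called in 17 of the 18 alternative fits, with adjusted p from 4.5e-05 to 0.0518.

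Prelid1 carries phosphatidic acid across the intermembrane space together with the small protein Triap1. Prelid1 (ENSMUSG00000021486, chromosome 13, 55320500 to 55325272, plus strand) was at 13.4, 14.7, 14.7 and 12.5 CPM in WT 1 to WT 4 and at 19.4, 23.6, 19.7 and 19.0 CPM in TAZG197V 1 to TAZG197V 4. All TAZG197V libraries were above all WT libraries, with TAZG197V 2 the highest. The means were 13.8 ± 1.09 and 20.4 ± 2.16 CPM, and the change of 0.58 (SE 0.0861, adjusted p = 0.00127, edgeR) was the largest of the 10. It was called in 17 of 18 alternative fits, with adjusted p from 2.6e-05 to 0.0546. The Prelid1 values are uncertain because 50.0% of its exon bases lie in the antisense genes Rab24 and Mxd3 and pseudogene copies match its transcripts. Rab24 was at -0.12 (SE 0.0894, adjusted p = 0.334, edgeR), and Mxd3 was at most 0.659 CPM in any library.

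Triap1 (ENSMUSG00000029535, chromosome 5, 115341225 to 115343569, plus strand) ranged from 15.4 to 20.6 CPM in WT and from 17.1 to 20.2 CPM in TAZG197V. The TAZG197V range lay within the WT range, and the change was 0.07 (95% interval -0.11 to 0.25, adjusted p = 0.514, edgeR). Plscr3, a scramblase that moves cardiolipin between the mitochondrial membranes, behaved likewise. Plscr3 (ENSMUSG00000019461, chromosome 11, 69846376 to 69852058, plus strand) ranged from 18.3 to 21.3 CPM in WT and from 19.4 to 21.2 CPM in TAZG197V, with a change of 0.05 (95% interval -0.10 to 0.20, adjusted p = 0.569, edgeR). Of its exon bases, 28.3% lie in the antisense gene Tnk1, which was at most 0.268 CPM in any library.

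**Figure D2:**
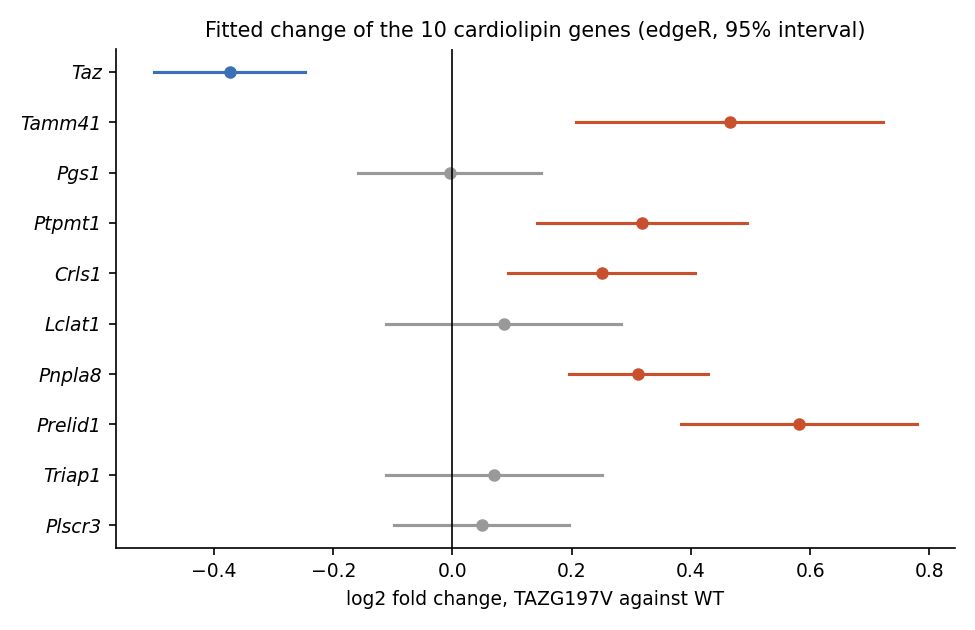
Fitted log2 fold change, TAZG197V against WT, of the 10 cardiolipin genes, with 95% intervals from edgeR. Blue marks a gene called lower, orange a gene called higher and grey a gene not called. Taz at -0.37 is the only one called lower, and Prelid1 at 0.58 is the highest.

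By role, 3 of 4 synthesis genes, 1 of 2 remodelling genes and 1 of 3 lipid transfer genes were called higher. In all, 6 of the 10 genes were called, 5 higher and 1 lower, where 33.5% of the 15084 genes tested were called, 18.5% higher and 15.1% lower. Values did not overlap between genotypes for 5 of the 10 (Taz, Tamm41, Ptpmt1, Pnpla8 and Prelid1), against 33.2% of genes tested. The median log2 fold change of the 10 was 0.17, beside -0.01 over all genes tested. The 10 genes were chosen by name with earlier results of these data known, so these shares are a description and were given no test. Relative to the summed cardiomyocyte markers, 7 of the 9 genes other than Taz lay higher in every TAZG197V library than in every WT library. The same held for 36.8% of all genes tested. These markers were themselves lower in TAZG197V, so a gene with no change in CPM rises by this measure, and the 7 include Triap1 and Plscr3, which did not pass the test on their counts.

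Levels between genes can be compared only per length, here as CPM per kb of annotated exon. In WT, Lclat1 was the highest at 30.4 ± 6.00 CPM per kb, followed by Triap1 at 16.4 ± 2.09 CPM per kb. Pnpla8 at 11.6 ± 0.200, Taz at 11.4 ± 0.440 and Crls1 at 10.5 ± 1.00 CPM per kb formed a middle group, in which Pnpla8 and Taz overlapped and Taz and Crls1 overlapped over the 4 libraries. Plscr3 at 6.30 ± 0.405, Prelid1 at 5.07 ± 0.399, Pgs1 at 3.97 ± 0.218 and Ptpmt1 at 3.79 ± 0.432 CPM per kb came next, of which only Pgs1 and Ptpmt1 overlapped. Tamm41 was the lowest at 0.993 ± 0.115 CPM per kb. In TAZG197V, Taz was at 8.81 ± 0.485, Crls1 at 12.6 ± 1.04 and Pnpla8 at 14.4 ± 0.365 CPM per kb, so Taz was below both without overlap. Annotated exon length sums all transcripts of a gene, which lowers the value of genes with rarely used exons.

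**Figure D3:**
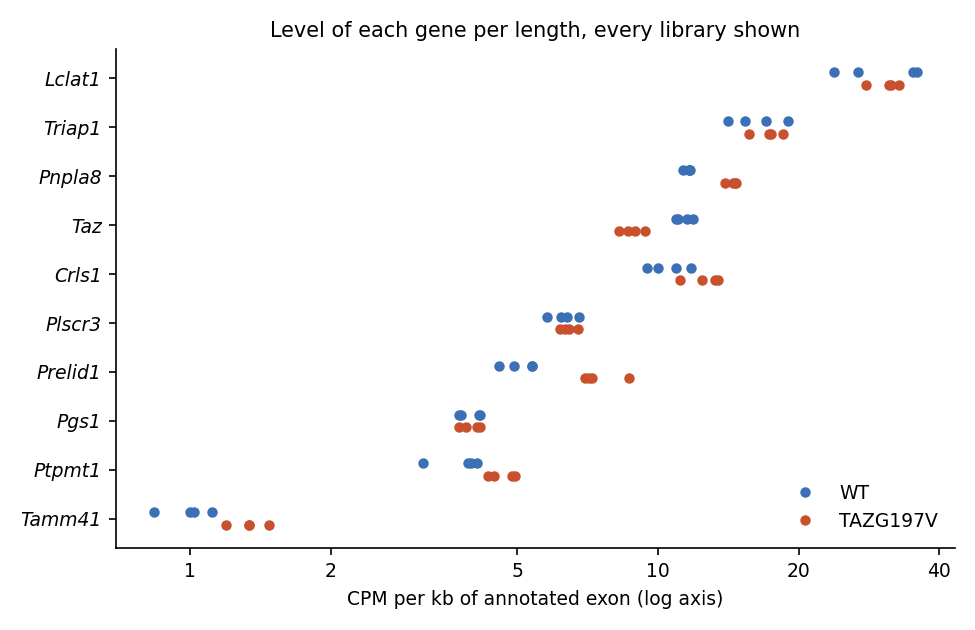
Level of each cardiolipin gene in CPM per kb of annotated exon, on a log axis, with a point for every WT and TAZG197V library. In WT, Lclat1 stands at the top with 30.4 CPM per kb and Tamm41 at the bottom with 0.993. Taz, Crls1 and Pnpla8 sit close together in WT and apart in TAZG197V.

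The other genes of the pathway were taken from a list of 30, of which 29 were tested and 14 called, 10 higher and 4 lower. That is 48.3% of those tested, beside 33.5% of all genes, and the median log2 fold change was -0.03. This list too was chosen with earlier results of these data known, so its share is a description and was given no test. Prelid3a was not tested, since it was at only 0.204 ± 0.0539 CPM in WT hearts and at 0.330 ± 0.259 CPM in TAZG197V hearts.

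Among genes that supply phosphatidic acid and CDP-diacylglycerol, 4 of 9 were called higher and 1 lower. Cds2, a CDP-diacylglycerol synthase of the endoplasmic reticulum, was at 226, 234, 220 and 264 CPM in WT 1 to WT 4 and at 366, 353, 366 and 324 CPM in TAZG197V 1 to TAZG197V 4. The genotypes were far apart, and Cds2 rose by 0.57 (SE 0.0781, adjusted p = 0.000892, edgeR). Also called higher were Agk, an acylglycerol kinase of mitochondria, at 0.45 (adjusted p = 0.0176), and the acyltransferase genes Agpat1 at 0.24 (adjusted p = 0.0132) and Agpat5 at 0.24 (adjusted p = 0.0331), all by edgeR. Agpat3, an acyltransferase of the same family, fell by 0.28 (adjusted p = 0.00942, edgeR). Gpam, Agpat2, Agpat4 and Cds1 were not called. Agk and Agpat1 were each called in 16 of the 18 alternative fits, and the Agk call was lost without TAZG197V 1 (0.45, adjusted p = 0.0507) or TAZG197V 2 (0.39, adjusted p = 0.0707), both by edgeR, with adjusted p from 0.0105 to 0.0707 over the alternatives. The Agpat1 call was lost without WT 1 (0.21, adjusted p = 0.0517) and without both number 4 libraries (0.12, adjusted p = 0.407), both by edgeR, with adjusted p from 0.00701 to 0.407 over the alternatives. Agpat3 was called in 10 of 18. Without WT 4 its change was -0.16 and was not called, and without both number 4 libraries and surrogate variables it was also -0.16. The call was lost too with no filter, with 0 or 1 surrogate variable, with lane as covariate and with the replicate block (adjusted p = 0.0611, edgeR, from 0.000372 to 0.128 over the alternatives). Agpat5 was called in 11 of 18. Its call was lost in DESeq2 (adjusted p = 0.0692, from 0.0159 to 0.314 over the alternatives), with the replicate block, and on leaving out WT 1 (0.21), WT 4 (0.22), TAZG197V 1 (0.22) or TAZG197V 2 (0.21). Without both number 4 libraries Agpat5 was at 0.20 and was not called.

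In the PRELID family, Prelid3b carries phosphatidylserine and had the lowest adjusted p of the list. It was at 57.6, 49.3, 63.4 and 51.9 CPM in WT 1 to WT 4 and at 97.98, 98.07, 88.8 and 78.3 CPM in TAZG197V 1 to TAZG197V 4. Every TAZG197V value exceeded every WT value, and the change was 0.69 (SE 0.0647, adjusted p = 0.000141, edgeR). Ptdss2, a phosphatidylserine synthase, was also called higher, at 0.36 (adjusted p = 0.0135, edgeR), while Ptdss1 and the decarboxylase gene Pisd were not called.

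Among genes of cardiolipin deacylation and turnover, Abhd18 was called lower and Hsd17b10 higher of 4 tested. Abhd18, a hydrolase gene, was at 83.7, 63.8, 72.4 and 63.8 CPM in WT 1 to WT 4 and at 44.7, 40.3, 46.7 and 39.6 CPM in TAZG197V 1 to TAZG197V 4. The lowest WT value was well above the highest TAZG197V value, and Abhd18 fell by 0.74 (SE 0.0927, adjusted p = 0.000569, edgeR). Hsd17b10, a multifunctional mitochondrial dehydrogenase, rose by 0.25 (adjusted p = 0.0168, edgeR) with overlapping genotypes. It was called in 13 of 18 alternative fits, and the call was lost with lane as covariate (adjusted p = 0.0836, edgeR, from 0.0145 to 0.154 over the alternatives), with no surrogate variable, without TAZG197V 2 (0.23), without TAZG197V 3 (0.22) and without both number 4 libraries (0.21). Pla2g6 was at -0.03 (SE 0.119, adjusted p = 0.879, edgeR), and at -0.095 to 0.067 when each library was left out. Pld6, with 8 to 22 counts per library, was at -0.80 (SE 0.362, adjusted p = 0.115, edgeR) and was not called. Of the 3 other reacylation genes, 0 were called by edgeR or DESeq2 and 0 had an unadjusted p under 0.05 in edgeR. Hadha, whose subunit of the trifunctional protein can reacylate monolysocardiolipin, was at -0.16 (SE 0.0768, adjusted p = 0.14, edgeR), Lpgat1 at -0.09 and Hadhb at -0.04. When each library was left out, Hadha ranged from -0.19 to -0.11, Lpgat1 from -0.17 to 0.0005 and Hadhb from -0.07 to 0.007.

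Of 5 genes for proteins that bind cardiolipin, 3 were called higher and 1 lower. Nme4, a nucleoside diphosphate kinase of mitochondria, was at 4.94, 4.59, 5.05 and 5.45 CPM in WT 1 to WT 4 and at 8.25, 9.55, 9.91 and 7.26 CPM in TAZG197V 1 to TAZG197V 4. The genotypes did not overlap, and the change was 0.77 (SE 0.108, adjusted p = 0.000995, edgeR). The prohibitin genes, whose products form rings in the inner membrane, rose by 0.21 for Phb (adjusted p = 0.0253) and 0.27 for Phb2 (adjusted p = 0.00838, both edgeR). Phb is uncertain, since 30.3% of 50-base windows along its transcripts are also found in another gene, and it was called in 9 of 18 alternative fits. Its call was lost in DESeq2 and with DESeq2 size factors, and on leaving out WT 1, WT 2, TAZG197V 1, TAZG197V 2 or TAZG197V 3, with changes from 0.19 to 0.22. It was lost too without both number 4 libraries (0.12, adjusted p = 0.43, edgeR, from 0.0206 to 0.43 over the alternatives) and without these and surrogate variables (0.24). Ckmt2, the mitochondrial creatine kinase of muscle, fell by 0.24 (adjusted p = 0.0414, edgeR) with overlapping genotypes. It was called in 8 of 18 alternative fits. Its change was -0.16 without TAZG197V 4 (adjusted p = 0.239), -0.16 without WT 3 (adjusted p = 0.15) and -0.41 without both number 4 libraries (adjusted p = 0.022), all by edgeR, with adjusted p from 0.00423 to 0.346 over the alternatives. Its call was lost with no filter, with 0 or 1 surrogate variable, with lane as covariate, with the replicate block, and on leaving out WT 3, TAZG197V 1, TAZG197V 2 or TAZG197V 4. Among the other scramblases, Plscr1 fell by 0.52 (adjusted p = 0.00717, edgeR), and Plscr2 and Plscr4 were not called.

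Cds2, Prelid3b, Abhd18 and Nme4 were called in all 18 alternative fits, as was Taz, and Ptdss2, Phb2 and Plscr1 in 17. The calls of these 3 were lost without both number 4 libraries, where Ptdss2 was at 0.22 (adjusted p = 0.222), Phb2 at 0.16 (adjusted p = 0.222) and Plscr1 at -0.45 (adjusted p = 0.111), all by edgeR. Those were their highest adjusted p over the alternatives. The lowest was 0.00722 for Ptdss2, 0.00341 for Phb2 and 0.00366 for Plscr1, all by DESeq2. Without TAZG197V 2, 9 genes of the list were called in place of 14, while calls over all genes fell from 5060 to 3675.

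**Figure D4:**
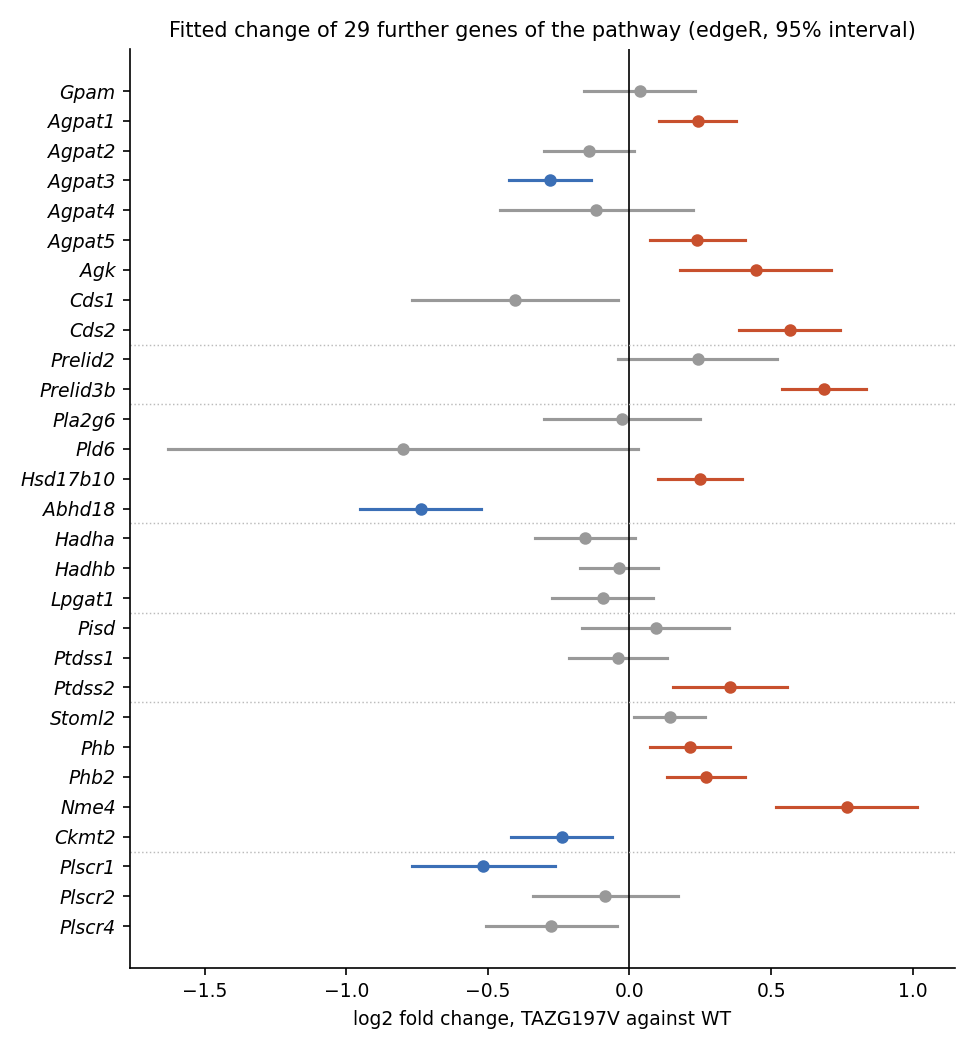
Fitted log2 fold change, TAZG197V against WT, of the 29 further pathway genes that were tested, with 95% intervals from edgeR. Orange marks a gene called higher, blue a gene called lower and grey a gene not called, and dotted lines separate the groups by role, in the order supply, PRELID family, turnover, reacylation, phosphatidylethanolamine route, cardiolipin-binding proteins and scramblases. Among the called genes, Nme4 at 0.77 and Prelid3b at 0.69 are highest and Abhd18 at -0.74 is lowest. Pld6, not called, lies lower at -0.80.

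To see whether the Taz difference was shared by genes around the edit, the 11 tested genes that start within 100 kb of the Taz start were examined. Of these, 4 were called, 3 higher and 1 lower, which is 36.4% beside 33.5% of all genes. The genes on either side of Taz were not called, with Dnase1l1 at -0.13 (SE 0.0738, adjusted p = 0.2) and Atp6ap1 at 0.08 (SE 0.0524, adjusted p = 0.25, both edgeR). Flna, which encodes the actin crosslinker filamin A, was at 173, 250, 152 and 193 CPM in WT 1 to WT 4 and at 99.2, 111, 111 and 104 CPM in TAZG197V 1 to TAZG197V 4. It fell by 0.78 (SE 0.107, adjusted p = 0.000869, edgeR) without overlap, and WT 2 was the highest. Rpl10, a ribosomal protein gene, was at 0.62 (adjusted p = 0.00403, edgeR) and is uncertain, since 33.5% of 50-base windows along its transcripts are also found in other genes, mainly pseudogenes. Rpl10 was called in 17 of 18 alternative fits, and not without both number 4 libraries (0.53, adjusted p = 0.0869, edgeR). Fam50a was at 0.26 (adjusted p = 0.0158) and Emd, which encodes emerin, at 0.23 (adjusted p = 0.0394, both edgeR), and these calls were made in 14 and 4 of 18 alternative fits and both lost in DESeq2. Fam50a was at 0.23 without WT 1, 0.25 without TAZG197V 2 and 0.18 without both number 4 libraries, and was not called in these. Emd ranged from 0.15 to 0.29 over the alternatives, lowest without WT 4, where it was not called. Without WT 1 or without TAZG197V 2, only 2 of these neighbours were called. Calls over all genes fell from 5060 to 4191 and 3675 in these fits.

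Genes whose profile over the 8 libraries was most like that of Taz were found by the root mean square difference of log2 CPM values centred on each gene's mean. The 3 nearest of 12356 genes were Tmem126b at 0.0269, Ints10 at 0.0282 and Apobec2 at 0.0356. Their fitted log2 fold changes were -0.41, -0.39 and -0.40. The measure includes the difference between genotypes, so genes near Taz share its fall by construction. None of the other 9 cardiolipin genes was called lower, and none was near Taz, with ranks from 3482 for Pgs1 to 10216 for Prelid1.

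Promoters of the cardiolipin genes were searched because several of them rose together. RefSeq promoters, from 250 bases before to 50 bases after each gene's RefSeq start on GRCm38.p6 (which can differ from the GENCODE start), were matched for 9 of the 10 genes, all but Tamm41, and these 9 had 12 promoters in all. The letters sought on both strands were TGATGNAA (C/EBP-ATF response element), the NRF1 element, AAGGTCA (element of estrogen-related receptors) and CACGTG (E-box), and none of the 4 contains another. They occur in 3.97%, 4.60%, 4.72% and 7.15% of all 32851 promoters of this length. Of the 12 promoters, 0 held the first, 1 (Pgs1) the second, 1 (Ptpmt1) the third and 2 (Crls1 and Prelid1) the E-box. The matched stretches are shown 5′ to 3′ on the strand of each gene, with the motif in capitals.

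Pgs1, chr11:117986774-117986833, plus strand: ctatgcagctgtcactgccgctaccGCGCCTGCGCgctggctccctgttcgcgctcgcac
Ptpmt1, chr2:90918078-90918134, minus strand: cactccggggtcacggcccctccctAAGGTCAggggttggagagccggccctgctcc
Crls1, chr2:132846438-132846493, plus strand: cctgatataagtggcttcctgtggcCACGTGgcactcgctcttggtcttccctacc
Prelid1, chr13:55321948-55322003, plus strand: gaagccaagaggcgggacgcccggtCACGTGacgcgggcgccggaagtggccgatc

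The motifs begin 58 bases before the start in Pgs1, 59 in Ptpmt1, 203 in Crls1 and 82 in Prelid1. The called genes Taz and Pnpla8 held none of the 4 motifs in this window, and the uncalled gene Pgs1 held 1. A match of letters is not evidence that a factor binds there.

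**Figure D5:**
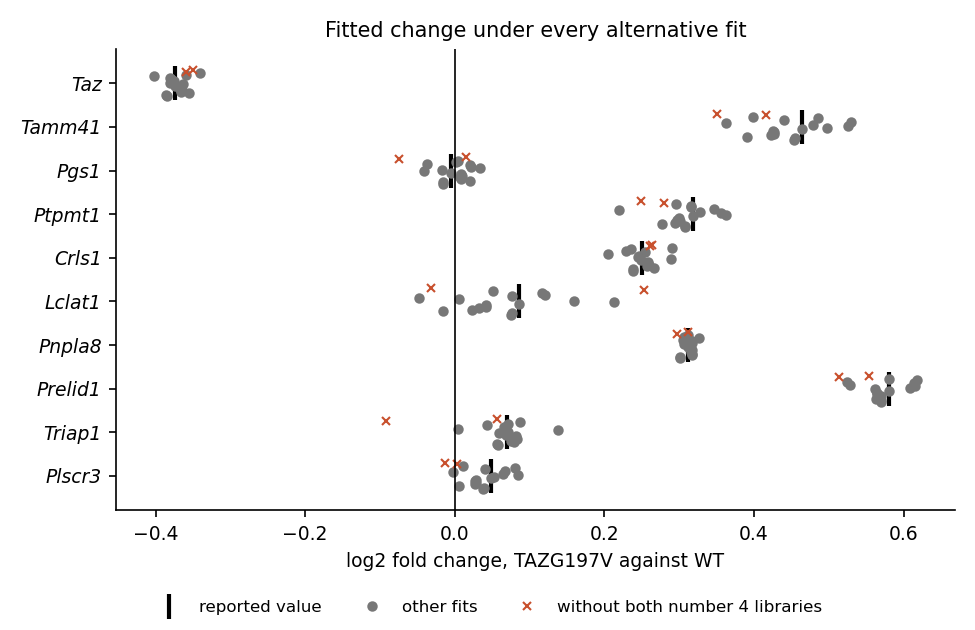
Fitted log2 fold change of each cardiolipin gene in the reported fit (black bar) and in 18 alternative fits (grey points, and orange crosses for the fits without both number 4 libraries). Taz stays between -0.40 and -0.34. Prelid1, Tamm41, Ptpmt1, Pnpla8 and Crls1 stay above 0 in all fits, while Pgs1, Lclat1, Triap1 and Plscr3 have values on both sides of 0.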

How the data were processed

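RNA from 4 WT and 4 TAZG197V mouse hearts was sequenced by the study as single-end reads. The authors aligned reads to mm10 with STAR 2.7.3a, allowing at most 2 mismatches, and counted exon reads with featureCounts of Subread 2.0.0. The deposited values are raw counts per Ensembl gene. The strand setting and the treatment of reads with several alignments were not given in the sources used here. All 92 ERCC rows were at 0 and were left out.

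Counts were fitted with edgeR 4.0.16 in R 4.3.3 (filterByExpr, TMM, 2 surrogate variables from sva 3.50.0, quasi-likelihood F-test, two-sided, Benjamini-Hochberg over 15084 genes). P-values measure the spread between these samples. The study's methods use DESeq2, which was an alternative here (1.42.0). Symbols and positions came from GENCODE M21. The members and lists were chosen with earlier results of these data known. All 10 members, all called pathway genes and neighbours, and the 3 genes most like Taz are named. Genes not called are named for context, and the cardiomyocyte marker ratio and overlapping genes were added after the data were seen. The fitting procedure was also run on simulated counts, and the outcome is not given here. Replicates of a genotype differed by more than sampling noise (chi-square of at least 10.2 per gene). At these totals counting error was small except for genes with few counts. Alternatives were other scalings, filters, covariates, cut-offs and left-out libraries.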

Additional observations from a re-analysis of the deposited data

Results flagged for a closer look

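The highest or lowest library stood apart from the other 3 of its genotype by Dixon's ratio (gap over range, on log2 values) in 8 of 68 sets examined, where chance gives about 3.4. Among the cardiolipin genes, Pnpla8 was lowest in WT 2 (log2 level 7.32 against 7.37 to 7.38, ratio 0.897), a small gap in a very tight group. Prelid1 was highest in TAZG197V 2 (4.57 against 4.25 to 4.31, ratio 0.83). The other 6 concern summed cell type markers. Brain markers were highest in WT 4 (6.61 against 3.59 to 3.68, ratio 0.969) and in TAZG197V 4 (7.92 against 3.27 to 3.63, ratio 0.922). Atrial markers (2.79 against 2.46 to 2.51, ratio 0.837) and adipocyte markers (2.81 against 0.44 to 0.70, ratio 0.891) were highest in TAZG197V 4 among TAZG197V libraries. Fibroblast markers were highest in WT 2 (10.75 against 10.09 to 10.18, ratio 0.858) and endothelial markers in WT 3 (9.93 against 9.45 to 9.48, ratio 0.94). Their part in the results was not tested.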

How the results depend on the processing

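Of the 10 cardiolipin genes, 4 to 7 were called when each library was left out in turn, 3 at an adjusted p under 0.01 and 0 at a fold change of at least 1.5. Without both number 4 libraries 1 was called (Taz), in a fit with 2 residual degrees of freedom. The same libraries without surrogate variables, an alternative chosen after seeing the data, gave 5. Of the further pathway genes 6 were called without both number 4 libraries, 3 at 1.5-fold, 7 at an adjusted p under 0.01 and 9 to 14 when each library was left out. Of the neighbours 1, 2, 2 and 2 to 4 were called in the same settings, and 2 in DESeq2. Over all genes 2649, 1843, 3174 and 3675 to 5243 were called.

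The sign changed for genes near 0. Pgs1 was at 0.021 with no filter on low counts, 0.0078 with no surrogate variable, 0.0073 with 1 surrogate variable, 0.0091 with lane as covariate, 0.0080 with the replicate block, 0.015 without both number 4 libraries and surrogate variables, and -0.041 to 0.033 when each library was left out. Lclat1 was at -0.015 with no filter, -0.032 without both number 4 libraries and surrogate variables, and -0.048 to 0.21 when each library was left out. Triap1 was at -0.092 without both number 4 libraries, and 0.0044 to 0.14 when each library was left out. Plscr3 was at -0.013 without these and surrogate variables, and -0.0018 to 0.085 when each library was left out. The cause was not tested.

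Deviations of same-numbered libraries correlated at 0.0436 to 0.416, and those of differently numbered libraries at -0.464 to 0.317. Number 2 lay under 0.1 and not every library correlated best with its own number, so the numbers were not taken as pairs. With the replicate block 6 cardiolipin genes, 11 further pathway genes, 3 neighbours and 4272 genes were called. Tamm41, with 99 to 288 counts per library, had the largest standard error of the 10 genes, 0.112.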
